A study of Mus musculus with 46 samples.

Results

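Expression of the genes for oxytocin (Oxt), vasopressin (Avp), the oxytocin receptor (Oxtr) and the vasopressin 1a receptor (Avpr1a) was followed in BNST, the bed nucleus of stria terminalis and part of the extended amygdala in the forebrain. All 6 probesets that the array annotation assigns to these 4 genes alone were taken, of 45037 probesets in the table, and 18193 genes had a probeset of their own. Oxt and Avp had 1 probeset each (1420556_at and 1450794_at), Oxtr had 1440888_at and 1426000_at, and Avpr1a had 1418604_at and 1418603_at. No probeset was shared with another gene.

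The 46 arrays each held RNA from 1 adult male C57BL/6J mouse. CIE mice (n = 22) received 4 cycles of chronic intermittent ethanol vapor, each of 4 days at 16 h per day, with 7 days of abstinence between cycles, after an injection of ethanol (1.6 g/kg) with pyrazole (1 mmol/kg), which blocks alcohol dehydrogenase. Ctrl mice (n = 24) breathed air and were injected with saline and the same pyrazole, so they were not untreated. Mice were killed at 0 h, 8 h, 72 h or 7 d of withdrawal, counted from the end of the last session, with 6 mice in each group of treatment and time except CIE at 7 d, which held 4.

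Oxytocin and vasopressin are short sister peptides that are cut from longer precursors, and their genes lie side by side in opposite orientation as products of an old duplication. Large neurons of the paraventricular and supraoptic nuclei of the hypothalamus make both peptides for release into blood and brain, and in male rodents the BNST holds a further group of vasopressin neurons that depend on testosterone. The oxytocin receptor and the vasopressin 1a receptor are related proteins that couple to Gq and phospholipase C, and both are known from the BNST of mice for roles in social behavior, stress and anxiety. Because the paraventricular nucleus lies close to the BNST, the level in each mouse is given below beside that of genes from neighboring tissue.

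The sequence before the start site is shown for the 2 peptide genes, whose levels moved together from mouse to mouse, and for Oxtr, which had the only CIE difference that passed the test. Each is 250 bases long, ends at the base before the start site and is taken from RefSeq annotation of mouse build GRCm38.p6, in which all 4 genes matched. They lie at chr2:130575919-130576168 on the plus strand for Oxt, chr2:130582589-130582838 on the minus strand for Avp and chr6:112489826-112490075 on the minus strand for Oxtr. Capitals mark the nuclear receptor half-site GGTCA on either strand (TGACC when read on the other), the E-box CACGTG, and the longest run that the Oxt and Avp sequences share.
Oxt: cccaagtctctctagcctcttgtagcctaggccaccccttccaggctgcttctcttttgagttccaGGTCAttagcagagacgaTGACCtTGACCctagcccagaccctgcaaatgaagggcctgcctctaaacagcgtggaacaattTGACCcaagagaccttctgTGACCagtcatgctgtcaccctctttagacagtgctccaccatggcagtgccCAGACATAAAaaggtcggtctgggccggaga
Avp: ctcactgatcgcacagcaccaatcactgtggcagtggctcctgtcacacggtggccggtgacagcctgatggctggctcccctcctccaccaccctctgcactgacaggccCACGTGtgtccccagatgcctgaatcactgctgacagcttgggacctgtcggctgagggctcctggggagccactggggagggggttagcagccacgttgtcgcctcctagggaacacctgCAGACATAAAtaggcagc
Oxtr: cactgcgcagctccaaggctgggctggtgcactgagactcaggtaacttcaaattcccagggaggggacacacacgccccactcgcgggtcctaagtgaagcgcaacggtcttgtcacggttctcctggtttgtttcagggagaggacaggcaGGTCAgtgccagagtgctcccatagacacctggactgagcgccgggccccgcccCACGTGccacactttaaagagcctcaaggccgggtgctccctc

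The sister genes shared a run of 10 bases, CAGACATAAA, which began 31 bases before the start of Oxt and 18 bases before the start of Avp. It was found on either strand in 18 of 32851 windows of this length over all annotated genes (0.0548%). The run was picked because these 2 windows share it, so this percentage does not measure how unusual the sharing is. GGTCA, the half-site that estrogen, thyroid hormone and retinoic acid receptors and their orphan relatives recognise, occurred 5 times in the Oxt window, once in Oxtr and not in Avp or Avpr1a. Of all windows 35.2% held at least 1 and 0.0426% at least 5 such matches, and no 2 of the 5 in Oxt overlapped. CACGTG, which reads the same on both strands and is bound by the clock factors CLOCK and BMAL1 among others, occurred once each in Avp and Oxtr and in 6.02% of all windows. The Avpr1a window, at chr10:122448249-122448498 on the plus strand, held none of the 3. These are matches of letters and no measure of binding.

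Of the 24 comparisons of a probeset between CIE and Ctrl mice, 1 passed an adjusted p of 0.01 or less, which was Oxtr 1440888_at at 72 h. CIE minus Ctrl called 2.4% of all probesets at 0 h, 0.557% at 8 h, 0.433% at 72 h and 0% at 7 d. Among the members 0 of 6 passed at 0 h, 8 h and 7 d and 1 of 6 at 72 h. At an unadjusted limma p under 0.05 there were 1 of 6 at 0 h, 0 at 8 h, 4 at 72 h and 1 at 7 d, the 1 being Oxtr 1440888_at both times. Of all probesets 16.5% were under 0.05 at 0 h, 10.5% at 8 h, 12.6% at 72 h and 4.94% (2226) at 7 d. The 4 at 72 h were 1 of Oxtr, 1 of Avp and both of Avpr1a, which repeat each other. The moderated F test over the 4 times called 1 of 6 members, again Oxtr 1440888_at (adjusted p = 0.00155), and 2.84% of all probesets. Of the 4 genes, Oxtr was thus higher in CIE mice by 1 of its 2 probesets, and for Oxt, Avp and Avpr1a no difference was called. Adjusted p values of differences and F tests are from limma with Benjamini-Hochberg adjustment over all probesets. Those of correlations are from permutation, adjusted over 6 pairs of genes.

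**Figure D1:**
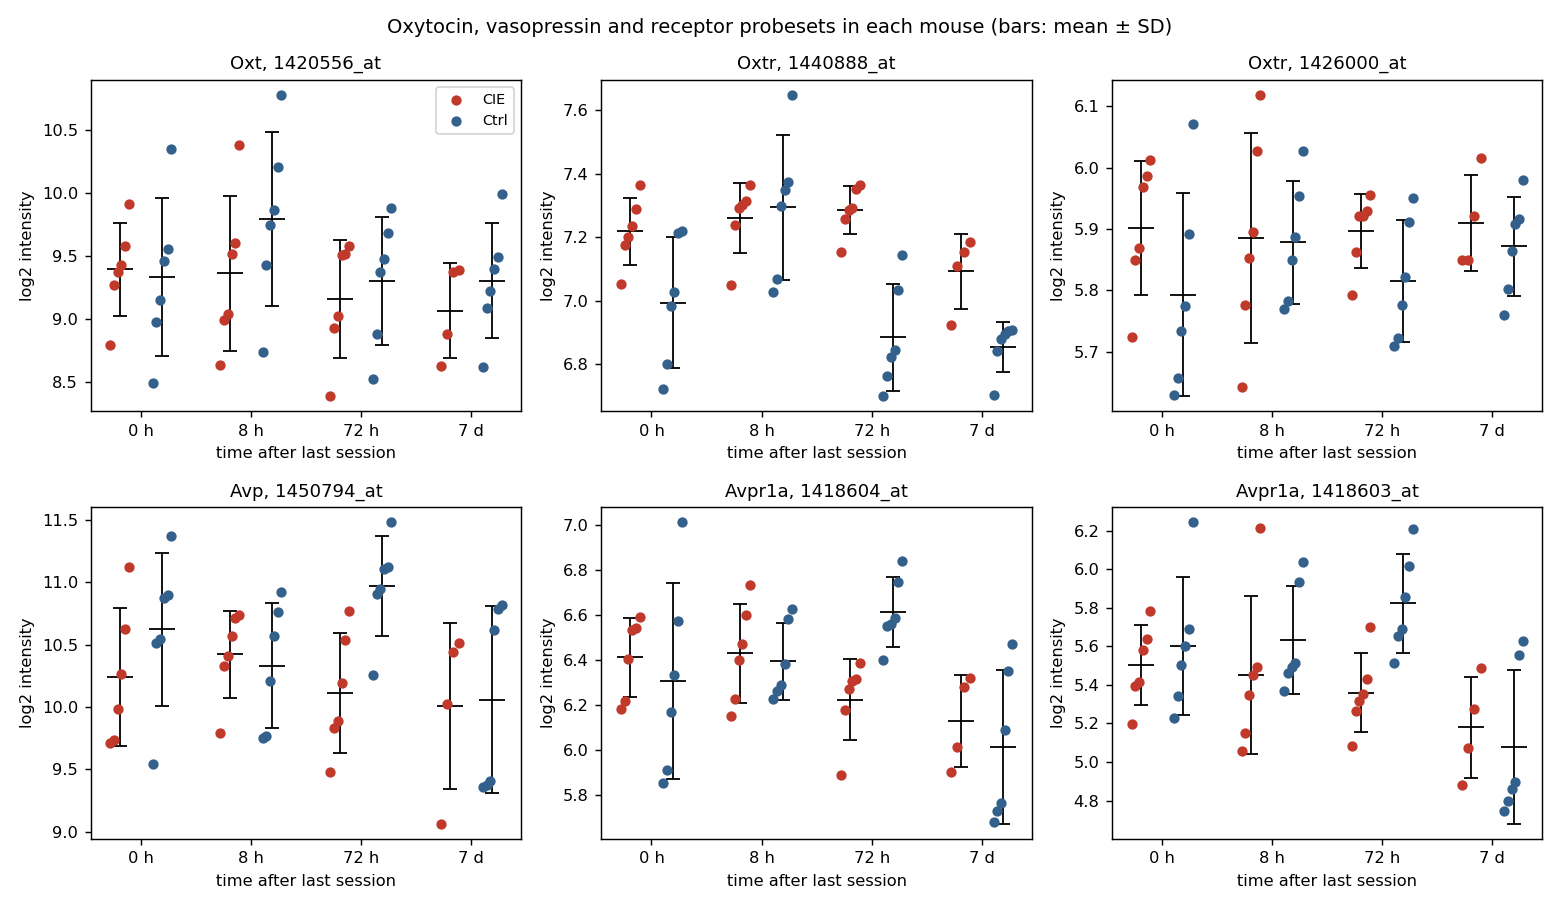
Log2 intensity (vertical axes) of the 6 probesets in each mouse, by time after the last session (horizontal axes), with CIE mice in red left of Ctrl mice in blue; bars give the mean ± SD of each group. At 72 h all 6 CIE mice lie above all 6 Ctrl mice for Oxtr 1440888_at and below them for Avpr1a 1418604_at, while the groups overlap at every time for Oxt and Avp.

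Oxtr, through which oxytocin acts on neurons of the BNST, was 1.32-fold higher in CIE mice at 72 h by probeset 1440888_at. At that time the CIE mice had a lowest, median and highest log2 intensity of 7.16, 7.29 and 7.36, against 6.70, 6.83 and 7.14 in Ctrl mice. The lowest CIE mouse lay above the highest Ctrl mouse. The means were 7.28 ± 0.08 in CIE and 6.88 ± 0.17 in Ctrl (SD, n = 6 each), a log2 difference of 0.40 (SE 0.084, 95% interval 0.23 to 0.57, adjusted p = 0.00800). An exact two-sided permutation test of this probeset alone gave p = 0.00216, the smallest that 6 mice against 6 allow. Over all probesets 2.9% had groups that did not overlap at 72 h.

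At the other times the same probeset did not pass. It read 7.05, 7.22 and 7.36 (lowest, median and highest) in CIE mice at 0 h, against 6.72, 7.00 and 7.22 in Ctrl mice, with 3 of 6 CIE mice above all Ctrl mice and a log2 difference of 0.23 (SE 0.084, adjusted p = 0.123). At 8 h the groups lay together, at 7.05, 7.30 and 7.36 in CIE mice and 7.03, 7.32 and 7.65 in Ctrl mice, and the difference of -0.03 had a 95% interval of -0.20 to 0.14. At 7 d the 4 CIE mice read 6.92, 7.11, 7.15 and 7.18, against 6.70, 6.84, 6.88, 6.89, 6.91 and 6.91 in the 6 Ctrl mice. All 4 CIE mice again lay above all Ctrl mice, by 0.24 on average (SE 0.094, adjusted p = 0.868; exact two-sided permutation p = 0.00476, the smallest that 4 against 6 allow). At 7 d 1.12% of all probesets had groups that did not overlap. The test of a change in this effect from time to time did not pass (adjusted p = 0.135, with 1.04% of all probesets called), so the Oxtr difference is not shown to belong to 72 h alone.

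In Ctrl mice the level of Oxtr 1440888_at itself differed between times, and in CIE mice no difference between times was called. The F test over the 4 Ctrl groups passed (adjusted p = 0.000520, with 10.9% of all probesets called), and that over the 4 CIE groups did not (adjusted p = 0.450, with 7.76% called). The Ctrl mean was 7.29 ± 0.23 at 8 h and 6.99 ± 0.21, 6.88 ± 0.17 and 6.86 ± 0.08 at 0 h, 72 h and 7 d (SD, n = 6 each). Relative to 8 h, Ctrl mice were lower by a log2 difference of -0.41 at 72 h (SE 0.084, adjusted p = 0.00303, with 1.1% of all probesets called) and of -0.44 at 7 d (SE 0.084, adjusted p = 0.000193, with 12% called). The CIE means stayed between 7.09 and 7.28 over the 4 times. Whole days separate 0 h, 72 h and 7 d but not 8 h, so hour of the day and time since the last session cannot be told apart here. In descending order the 8 group means ran Ctrl at 8 h, CIE at 72 h, CIE at 8 h, CIE at 0 h, CIE at 7 d, Ctrl at 0 h, Ctrl at 72 h and Ctrl at 7 d.

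The other Oxtr probeset, 1426000_at, did not show this pattern. At 72 h it read 5.79, 5.92 and 5.96 (lowest, median and highest) in CIE mice and 5.71, 5.80 and 5.95 in Ctrl mice, so that the groups overlapped. Its differences over the 4 times lay between 0.01 and 0.11 and passed at none (adjusted p = 0.729 at 72 h, 95% interval -0.05 to 0.22), and the 1.32-fold rise thus rests on 1440888_at alone. Across 46 mice the deviations of the 2 probesets from their group means correlated at r = 0.181. The annotation ties 1440888_at to an expressed sequence tag and 1426000_at to an Oxtr gene record, and which part of the transcript either one detects was not examined. The call for 1440888_at was lost, with an adjusted p of 0.0115 to 0.0312 and a difference of 0.36 to 0.41, when any 1 of the CIE mice 3, 29, 35, 63 and 71 or of the Ctrl mice 16, 44, 52 and 68 at 72 h was left out.

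Avpr1a, the main vasopressin receptor of the forebrain, was lower in CIE mice at 72 h by both probesets, but neither difference passed the test. For 1418604_at the lowest, median and highest values were 5.89, 6.29 and 6.39 in CIE mice, against 6.40, 6.57 and 6.84 in Ctrl mice. Every CIE mouse lay below every Ctrl mouse, though the highest CIE mouse and the lowest Ctrl mouse nearly met. The log2 difference was -0.39 (SE 0.14, 95% interval -0.67 to -0.10, adjusted p = 0.171; exact two-sided permutation p = 0.00216). For 1418603_at the values were 5.08, 5.34 and 5.70 in CIE mice and 5.51, 5.77 and 6.21 in Ctrl mice, with 5 of 6 CIE mice below all Ctrl mice and a difference of -0.46 (SE 0.17, 95% interval -0.81 to -0.12, adjusted p = 0.175; exact two-sided permutation p = 0.00866).

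The 2 Avpr1a probesets moved together over mice (r = 0.813 between their deviations from the group means), so they are repeat readings of 1 transcript and not independent evidence. At 0 h, 8 h and 7 d their differences lay between -0.18 and 0.11 and none passed. In Ctrl mice Avpr1a was highest at 72 h and lowest at 7 d. The Ctrl means of 1418604_at were 6.31, 6.39, 6.61 and 6.02 at 0 h, 8 h, 72 h and 7 d, and those of 1418603_at were 5.60, 5.63, 5.82 and 5.08. Ctrl mice at 7 d were lower than Ctrl mice at 72 h by a log2 difference of -0.60 for 1418604_at (SE 0.14, adjusted p = 0.00496) and of -0.74 for 1418603_at (SE 0.17, adjusted p = 0.00414), a contrast that called 5.16% of all probesets. The F test over the 4 Ctrl groups passed for 1418603_at (adjusted p = 0.00714) and narrowly missed for 1418604_at (adjusted p = 0.0127).

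Avp was 1.81-fold lower in CIE mice at 72 h in the means, a difference that did not pass the test. The CIE mice read 9.48, 10.04 and 10.77 (lowest, median and highest), against 10.26, 11.03 and 11.48 in Ctrl mice. In this gene 4 of 6 CIE mice lay below all Ctrl mice and the other two overlapped with them. The means were 10.11 ± 0.48 in CIE and 10.97 ± 0.40 in Ctrl (SD, n = 6 each), which gave a log2 difference of -0.86 (SE 0.30, 95% interval -1.46 to -0.25, adjusted p = 0.149; exact two-sided permutation p = 0.0108). Of all probesets 99.9% had a smaller difference at 72 h, of either sign, but Avp also had one of the largest spreads between mice. The Ctrl means were 10.62, 10.33, 10.97 and 10.06 at 0 h, 8 h, 72 h and 7 d, highest at 72 h. CIE mice at 72 h differed from CIE mice at 0 h by -0.125 (SE 0.30, adjusted p = 0.867). Neither the F test over the 4 Ctrl groups nor that over the 4 CIE groups passed (adjusted p = 0.0915 and 0.803).

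At 0 h Avp read 9.71, 10.13 and 11.12 in CIE mice and 9.54, 10.71 and 11.37 in Ctrl mice, a difference of -0.38 (SE 0.30, adjusted p = 0.602). The 8 h values were 9.79, 10.49 and 10.74 in CIE mice and 9.75, 10.39 and 10.92 in Ctrl mice, a difference of 0.09 (95% interval -0.51 to 0.70). The 95% interval at 0 h ran from -0.99 to 0.22. At 7 d the CIE mice read 9.06, 10.02, 10.44 and 10.51, and the Ctrl mice fell into a low trio at 9.36, 9.37 and 9.41 and a high trio at 10.62, 10.79 and 10.81. In that group no Ctrl mouse was near the mean of 10.06 ± 0.75 (SD, n = 6).

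Oxt had no difference between CIE and Ctrl mice at any time that approached the threshold. The lowest, median and highest values at 0 h were 8.79, 9.40 and 9.91 in CIE mice and 8.49, 9.30 and 10.35 in Ctrl mice. At 8 h they were 8.64, 9.28 and 10.38 in CIE mice and 8.74, 9.80 and 10.78 in Ctrl mice, the widest gap of the 4 times (-0.43, SE 0.29, adjusted p = 0.688). The groups overlapped almost wholly at both. CIE mice at 72 h read 8.39, 9.27 and 9.58, against 8.52, 9.42 and 9.88 in Ctrl mice. At 7 d the 4 CIE mice read 8.62, 8.88, 9.37 and 9.39, and the Ctrl mice 8.62, 9.31 and 9.99. The 95% intervals of the 4 differences together ran from -1.02 to 0.65.

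For none of the 6 probesets did neighbors in the order of the 8 group means differ beyond their spread. Of 42 such neighboring pairs 0 passed, and the smallest unadjusted limma p among them was 0.180. Sorting puts the closest means side by side, so this does not show that the groups are alike. Groups farther apart did differ, as Ctrl at 8 h and at 7 d for Oxtr 1440888_at (adjusted p = 0.000193). Ctrl at 72 h stood first in the order for Avp and for both Avpr1a probesets, and Ctrl at 8 h for Oxt and Oxtr 1440888_at. CIE at 7 d was last for Oxt and Avp, and Ctrl at 7 d for both Avpr1a probesets.

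**Figure D2:**
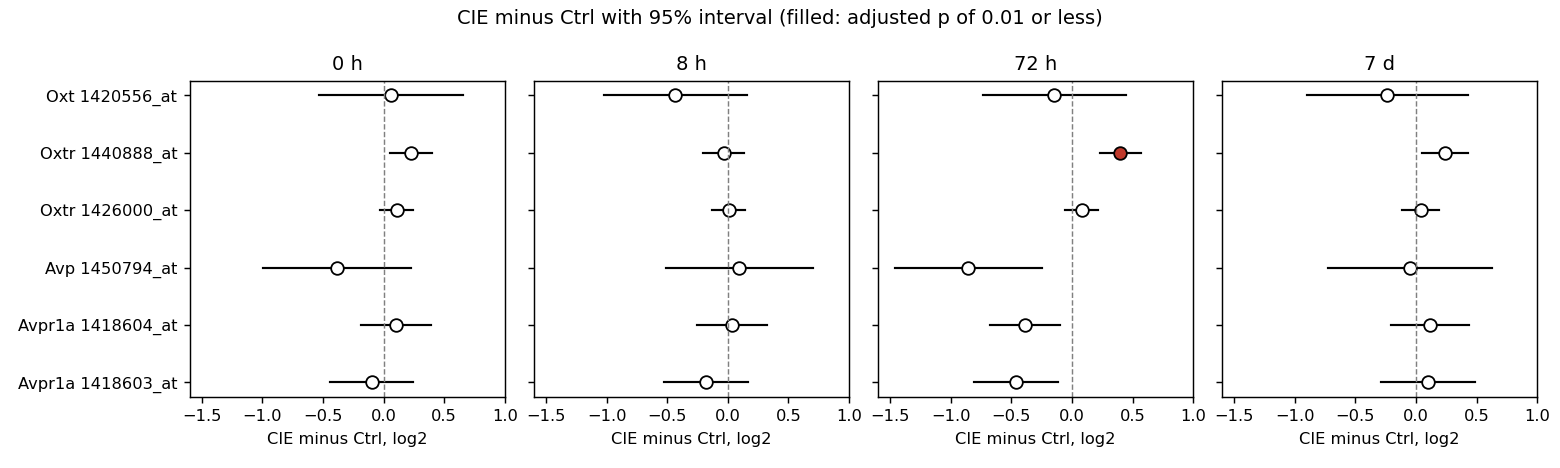
Log2 difference between CIE and Ctrl mice (horizontal axes, CIE minus Ctrl) for each of the 6 probesets at each time, with its 95% interval from limma; a filled point passed an adjusted p of 0.01. The only filled point is Oxtr 1440888_at at 72 h (0.40), and the intervals of Oxt and Avp are the widest.

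For the remaining receptors of the family no difference was called. Avpr1b, the pituitary-type receptor also known from hippocampal area CA2, had differences between 0.00 and 0.05 in size (adjusted p of 0.848 or more). Avpr2, the receptor of the kidney collecting duct, had differences between 0.02 and 0.13 (adjusted p of 0.918 or more). Of the genes listed for processing and breakdown of the peptides, Lnpep and Pcsk2 had no probeset of their own, so breakdown was not covered. The measured processing genes had 0 of 7 called at any time, and at 72 h their median difference was 0.03. The smallest p among them was that of Pcsk1, a convertase that cuts prohormones, with a difference of -0.74 at 72 h (SE 0.21, adjusted p = 0.0519). Genes of peptide release and receptor signalling had 0 of 12 called at any time, with Magel2, an imprinted gene whose loss disturbs oxytocin neurons in mice, at 0.41 at 72 h (SE 0.13, adjusted p = 0.0810).

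Steroid receptors and related genes, which mark hormone-sensitive cells of the BNST, had 1 of 7 called at 72 h and 0 of 7 at the other times. The member called was Nr3c1, the glucocorticoid receptor, at 10.67 ± 0.05 in CIE and 10.41 ± 0.08 in Ctrl (SD, n = 6 each), a difference of 0.26 (SE 0.048, adjusted p = 0.00301). The median difference of this list at 72 h was 0.26, and all 7 were above 0. Of the neuropeptides of the preoptic area and BNST 1 of 14 was called, which was Pnoc, the precursor of nociceptin, at 0.86 at 72 h (SE 0.18, adjusted p = 0.00906).

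Oxt and Avp were among the most variable of all probesets between mice of the same group. The residual SD of Avp was 0.547 log2 units and that of Oxt 0.533, ranks 97 and 109 of 45037 from the largest, where the median over all probesets was 0.135. Probesets within 0.5 log2 units of the same mean level had a median SD of 0.0955 for Avp and 0.108 for Oxt. Over all 46 mice Avp ran from 9.06 to 11.48, a 5.34-fold range, and Oxt from 8.39 to 10.78, a 5.25-fold range. Avpr1a was also variable, with an SD of 0.255 for 1418604_at, above 93.6% of all probesets, and of 0.309 for 1418603_at, above 96.64%. Oxtr was not, with an SD of 0.148 for 1440888_at and 0.116 for 1426000_at.

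**Figure D3:**
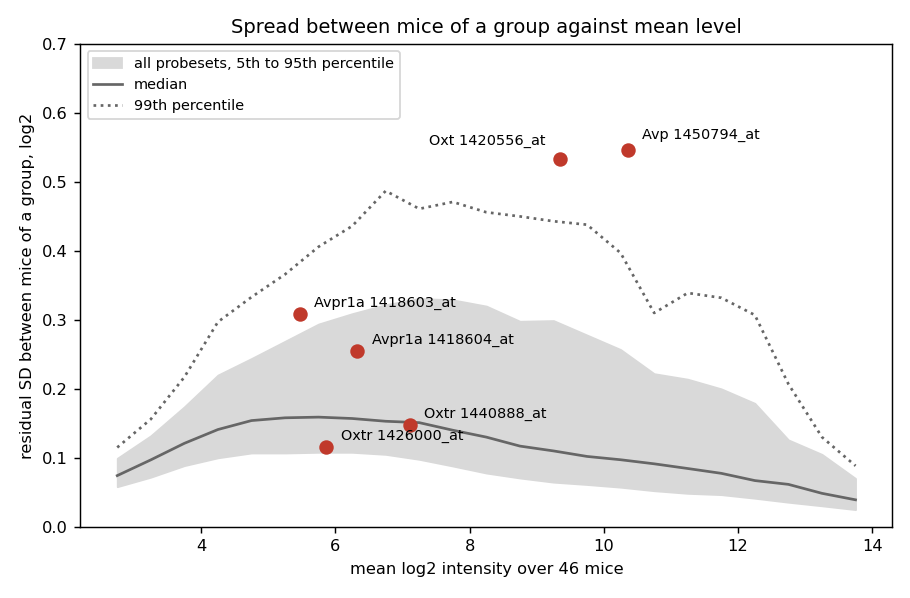
Residual SD between mice of a group (vertical axis, log2) against mean log2 intensity over 46 mice (horizontal axis); grey gives the 5th to 95th percentile over all probesets, with the median and 99th percentile as lines. Oxt (0.533) and Avp (0.547) lie above the 99th percentile for their level, Avpr1a lies near the upper edge of the grey band and Oxtr near or below the median.

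Levels of the 2 peptide genes varied together across mice. Over the deviations from group means Oxt and Avp correlated at Pearson r = 0.653 and Spearman rho = 0.688 (46 mice, two-sided permutation p = 1e-05 for both, the smallest that 100000 resamples allow, and 6e-05 when adjusted over 6 pairs of genes). Without the 2 mice farthest from the median of Oxt, r was 0.688. It was 0.68 within CIE mice and 0.63 within Ctrl mice, and 0.53, 0.72, 0.69 and 0.85 within 0 h, 8 h, 72 h and 7 d. The low trio of Ctrl mice for Avp at 7 d were also the 3 lowest for Oxt in that group.

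Avp and Avpr1a (1418604_at) correlated at r = 0.468 and rho = 0.440 (permutation p = 0.00102 and 0.00245, adjusted over 6 pairs 0.00306 and 0.00735), and at r = 0.417 without the 2 mice farthest from the median of Avp (adjusted permutation p = 0.0144). This relation was uneven, with r = 0.082 within the 22 CIE mice and 0.67 within the 24 Ctrl mice. By time it was 0.50, -0.19, 0.25 and 0.87 at 0 h, 8 h, 72 h and 7 d, so it was near 0 in CIE mice, below 0 at 8 h and weak at 72 h. The difference between CIE and Ctrl mice in this correlation was not tested. Oxt and Avpr1a (r = 0.113, adjusted permutation p = 0.549) and the 3 pairs that include Oxtr 1440888_at (r between -0.197 and -0.0573, adjusted permutation p of 0.376 or more) did not pass. No value within hybridization batches can be given, since the sources used here do not name the batch of an array.

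**Figure D4:**
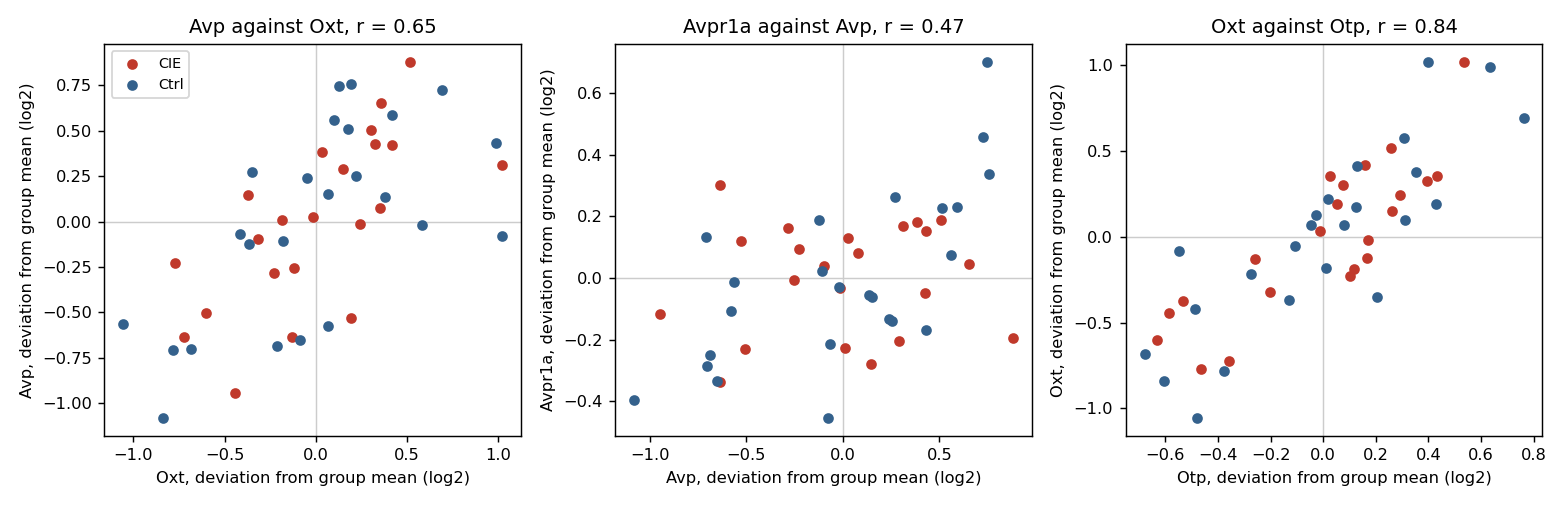
Deviation of each mouse from its group mean (log2) for pairs of genes, with CIE mice in red and Ctrl mice in blue: Avp against Oxt, Avpr1a (1418604_at) against Avp, and Oxt against Otp. Points rise together in the left panel (r = 0.653) and most closely in the right panel (r = 0.842), while in the middle panel (r = 0.468) the red points show little relation.

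The gene most like Oxt across mice was Otp, a homeodomain factor required for oxytocin and vasopressin neurons to form in mice, with r = 0.842 over 46 mice among 18192 genes ranked. It was followed by Glra2, a glycine receptor subunit (r = 0.795), Irs4, an insulin receptor substrate (0.793), Sytl4, which docks secretory granules (0.785), and Ngb, neuroglobin (0.775). For Avp the closest were A930009L07Rik (0.754), Otp (0.729), Sncg, the gene for gamma-synuclein (0.728), Ptges, a prostaglandin E synthase (0.718), and Rspo1, an activator of Wnt signalling (0.713). Avpr1a (1418604_at) was most like Cabp7, a calcium-binding protein (0.837), Entpd2, an enzyme that breaks down extracellular ATP (0.830), the scaffold Akap12 (0.829), the growth factor Nrg1 (0.825) and C1ql3 (0.825). Oxtr 1440888_at was most like Cyb561, an electron carrier of secretory vesicles (0.789), and then Tasor (0.689), Map3k20 (0.642), Pgam5 (0.627) and Pdcd7 (0.626). These genes were picked as the highest of all, so their r is a description, and mice of a group also share dissection and array effects. None of them differed between CIE and Ctrl mice at an adjusted p of 0.01 at any time.

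A pair of peptide genes of the nearby hypothalamus, picked after values were seen, read high and varied widely between mice. Markers of forebrain inhibitory neurons, which make up most of the BNST, were at a mean log2 intensity of 13.0 for Gad1 and 11.7 for Slc32a1. Hcrt and Pmch, the precursors of orexin and of melanin-concentrating hormone, whose cell bodies lie in the lateral hypothalamus, were at 11.5 and 13.3 and ranged 71.5-fold and 17.6-fold between mice. The other 11 hypothalamic markers were lower, at means of 3.52 (Hmx3) to 7.35 (Pomc), and no detection call was at hand for them. In bulk tissue more cells of a type and more RNA per cell cannot be told apart. Avpr1a 1418604_at correlated with Hcrt at r = 0.78 and with Pmch at 0.62, Avp at 0.51 and 0.58, Oxt at 0.14 and 0.17, Oxtr 1440888_at at 0.05 and 0.04 and Oxtr 1426000_at at 0.36 and 0.26 (46 mice, deviations from group means). With the mean of 13 hypothalamic markers r was 0.70 for Avpr1a 1418604_at, 0.64 for Avp, 0.47 for Oxt, -0.19 for Oxtr 1440888_at and 0.09 for Oxtr 1426000_at. With 4 transcription factors of the paraventricular and magnocellular neurons it was 0.66 for Avp and 0.55 for Oxt. Other lists and genes also correlated with the members. For Oxt r was 0.55 with steroid receptors and 0.53 with peptide processing. For Avp it was 0.54 with cortical markers and 0.53 with peptide processing, but 0.071 with steroid receptors. Avpr1a 1418604_at was at 0.78 with Pcsk1, 0.64 with Lhx8, a basal forebrain gene, and 0.45 with the paraventricular and magnocellular factors. It was at -0.55 with the striatal and -0.36 with the thalamic list. With neuropeptides of the preoptic area and BNST it was at -0.54, and with steroid receptors at -0.43. These are descriptions across mice that share tissue, and the part of dissection in them was not tested.

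Within Ctrl mice at 7 d the low and high trios for Avp also differed in these markers. The mice with the lowest Avp (36, 70 and 80) had Otp at 7.91, 8.04 and 8.32 and Pmch at 11.42, 11.00 and 11.87. The mice with the highest Avp (28, 46 and 62) had Otp at 8.90, 9.02 and 9.35 and Pmch at 13.42, 13.94 and 13.70. No value of one trio reached the other for either gene, and the same 3 mice were lowest in Avpr1a 1418604_at, at 5.73, 5.68 and 5.76.

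The marker lists of neighboring tissue were set side by side at 72 h, the time of the only call among the members. The list means were not tested between groups. The mean level of 9 thalamic markers was 8.69, 9.21 and 9.63 (lowest, median and highest) in CIE mice and 8.47, 8.58 and 8.68 in Ctrl mice, with 6 of 6 CIE mice above all Ctrl mice. Its members had 0 of 9 called, 7 of 9 above 0 and a median difference of 0.62. Synpo2 came closest to a call, at 8.66 ± 0.84 in CIE and 6.54 ± 0.34 in Ctrl (SD, n = 6 each, adjusted p = 0.0129). Slc17a6 (-0.39, adjusted p = 0.185) and Prox1 (-0.08, adjusted p = 0.921) were lower in the mean of CIE mice. Separation of the groups at 72 h was not particular to the thalamic list. The lowest CIE and highest Ctrl mouse were at 8.32 and 8.27 for steroid receptors. For release and receptor signalling they were at 10.5 and 10.4. The mean of 10 striatal markers was 8.78, 9.09 and 9.32 in CIE mice and 9.15, 9.40 and 9.70 in Ctrl mice, with 0 of 10 called and a median difference of -0.24. For the 13 hypothalamic markers the values were 6.24, 6.82 and 7.02 in CIE mice and 6.66, 6.95 and 7.21 in Ctrl mice, with 0 of 13 called, 5 of 13 above 0 and a median difference of -0.06. The largest difference in size was that of Hcrt, which read 8.20, 11.67 and 12.99 in CIE mice and 11.88, 13.07 and 14.36 in Ctrl mice (adjusted p = 0.313), while Trh was 0.43 higher in the mean of CIE mice (adjusted p = 0.247). The mean of 14 markers of the BNST and basal forebrain was 9.52, 9.58 and 9.67 in CIE mice and 9.28, 9.33 and 9.52 in Ctrl mice, with 5 of 6 CIE mice above all Ctrl mice. In that list 1 of 14 was called, which was Lhx8, a factor of basal forebrain cholinergic neurons, at -0.82 (SE 0.16, adjusted p = 0.00505). Its members disagreed, with 10 of 14 above 0. The largest difference was that of Prkcd (1.41, adjusted p = 0.0210), while Lhx6 (-0.42), Npas1 (-0.39) and Nkx2-1 (-0.08) were below 0 with Lhx8. Cortical markers had 0 of 8 called at any time. The 12 markers of choroid plexus and ependyma had 1 called at 0 h, Kl (0.42, adjusted p = 0.000802), and 1 at 72 h, Otx2 (0.73, adjusted p = 0.00657).

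**Figure D5:**
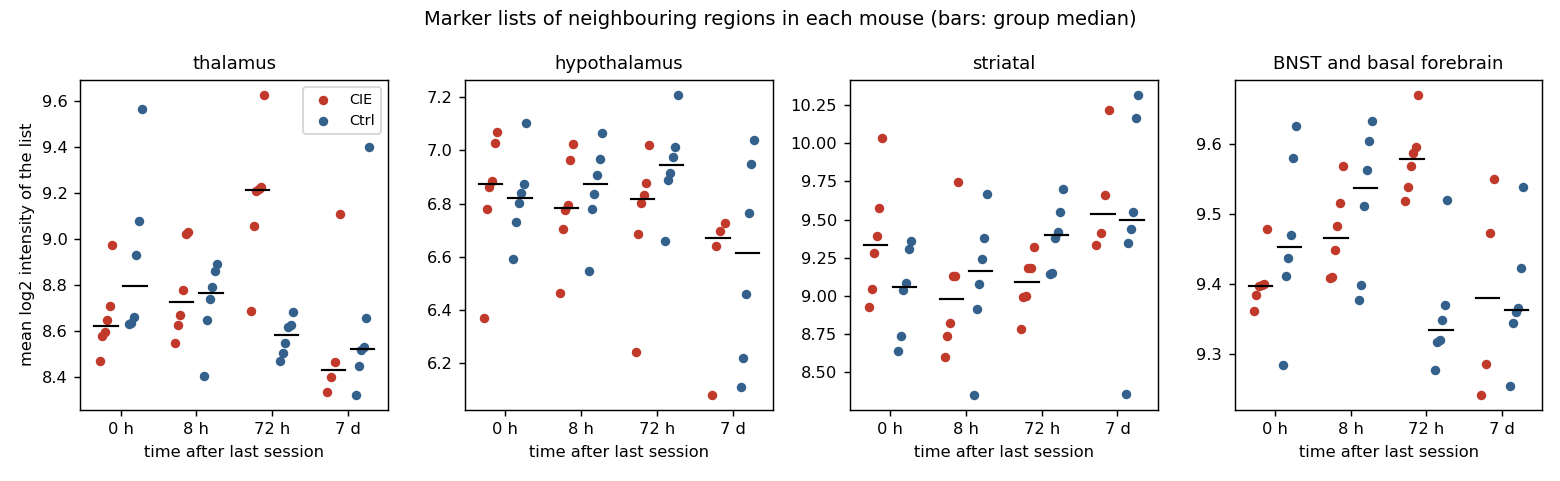
Mean log2 intensity (vertical axes) of the marker lists of 4 regions in each mouse, by time after the last session (horizontal axes), with CIE mice in red left of Ctrl mice in blue and bars at the group median. At 72 h the thalamic list is above all Ctrl mice in 6 of 6 CIE mice, and no list separates the groups at 0 h, 8 h or 7 d.

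The Oxtr difference at 72 h was about as large when 1 of 3 of these lists was a covariate in the fit. It was 0.39 with the hypothalamic list (adjusted p = 0.00781), 0.41 with the striatal list (adjusted p = 0.00393) and 0.44 with the thalamic list, where it no longer passed (adjusted p = 0.0530). Oxtr 1440888_at itself correlated with these 3 lists at -0.19, 0.055 and -0.14 (46 mice, deviations from group means). Its highest r with a list was 0.39, with that of the BNST and basal forebrain, which was not used as a covariate. The part of tissue composition in the Oxtr difference was not tested. The Avpr1a differences changed with the covariate. For 1418604_at the difference was -0.32 with the hypothalamic list (adjusted p = 0.0942), -0.21 with the thalamic list (adjusted p = 0.762) and -0.51 with the striatal list, where it passed (adjusted p = 0.00954), as did 1418603_at at -0.62 (adjusted p = 0.00926). Avp was at -0.73, -0.61 and -1.03 with the hypothalamic, thalamic and striatal lists and passed with none (adjusted p = 0.0941, 0.640 and 0.0310). Calls over all 45037 probesets moved as well. At 72 h 195 were called without a covariate, 794 with the striatal list and 3 with the thalamic list. The thalamic and striatal covariates were chosen after the data were seen, and where a list itself separates the groups its covariate and the effect of CIE cannot be told apart.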

How the data were processed

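RNA from the BNST of 46 mice was hybridized to Affymetrix mouse arrays, 1 mouse per array. Deposited log2 intensities were used as they stood. To make them the authors ran RMA on each hybridization batch, then a joint quantile normalization, then ComBat against batch. Which array was in which batch, tool versions and ComBat covariates are not given in the sources used here. Batch was therefore not modelled, and a group difference unevenly spread over batches may have been altered. The authors randomised treatments and times for processing. Normalization to 1 distribution hides a shift common to most genes, and since no detection call was given no probeset was called absent. The number of mice limits the precision.

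Groups came from the labels. In R 4.3.3, limma 3.58.1 fitted 8 group means over the 46 arrays, after the script was tested on simulated data. CIE minus Ctrl at each time and moderated F tests were adjusted by Benjamini-Hochberg over 45037 probesets, with a threshold of 0.01. Gene names came from the platform annotation (34945 probesets with 1 symbol, 932 with several, 9160 with none), and a probeset was assigned to a gene only where it had that symbol alone. A gene outside the 4 studied was represented by its probeset of highest mean. Mice were taken as separate animals as labelled.

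Correlations used deviations from group means and permutation of mice, with a threshold of 0.05. All probesets of the 4 genes and of Avpr1b and Avpr2 were named, with up to 3 called genes of each list or the 1 of smallest p, and the 5 genes most like each member. Single markers of thalamus, hypothalamus and forebrain (Gad1, Slc32a1, Hcrt, Pmch) were added after values were seen. The 4 genes and all lists were chosen with earlier results of these data known. Alternatives were the 2 groups alone, array weights, aligned medians, a filter on dim probesets, trended robust variances, marker lists as covariates and leaving out each mouse.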

Additional observations from a re-analysis of the deposited data

Results flagged for a closer look

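Each of the 6 probesets was examined in the 8 groups for a mouse that stood far from the rest of its group. Of 48 groups 2 held such a mouse, and chance alone gives about 1 in 20. For Oxtr 1440888_at the lowest Ctrl mouse at 7 d, mouse 36, read 6.70, where the nearest of the others read 6.84, a gap of 0.678 of the range of the group. For Avpr1a 1418603_at the highest CIE mouse at 8 h, mouse 21, read 6.22, where the nearest of the others read 5.49, a gap of 0.6252 of the range and only just past the limit of 0.625. The other Avpr1a probeset was also highest in mouse 21 of that group, at 6.73.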

How the results depend on the processing

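Of 180 values of a member difference under other settings than leaving out a mouse, 173 kept their direction and side of the threshold. The call for Oxtr 1440888_at at 72 h was lost with the thalamic list as covariate (0.44, adjusted p = 0.0530), and Avpr1a 1418604_at and 1418603_at at 72 h passed with the striatal list as covariate (-0.51 and -0.62). Small differences that did not pass changed sign: Avp at 7 d was 0.12 with the hypothalamic and 0.0088 with the striatal list, Avpr1a 1418603_at at 0 h was 0.0531 with the striatal list, and Oxtr 1426000_at at 8 h was -0.0182 with array weights. Over all probesets, with the 2 groups alone 287 were called at 0 h, 36 at 8 h and 404 at 72 h. With array weights 476 were called at 8 h, 1151 at 72 h, 2481 by the F test over 4 times, 6654 by that over the CIE time course and 942 for the change of effect. The F test over the Ctrl time course called Avpr1a 1418604_at with array weights (adjusted p = 0.00342) and with each list as covariate (0.00317 to 0.00813). With the striatal list 794 were called at 72 h, and with the thalamic list 3 at 72 h and 280 for the change of effect. The cause was not tested.

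Leaving out each of 46 mice in turn moved the calls over all probesets between 689 and 1459 at 0 h, 162 and 290 at 8 h, 28 and 375 at 72 h and 0 and 1 at 7 d. The count at 72 h was lowest without Ctrl mouse 68. Oxtr 1440888_at at 72 h lay between 0.36 and 0.45 and was lost in 9 of 46 fits. Differences that changed sign lay between -0.11 and 0.27 (Oxt at 0 h), -0.30 and 0.0096 (Oxt at 72 h), -0.0874 and 0.0373 (Oxtr 1440888_at at 8 h), -0.0395 and 0.0559 (Oxtr 1426000_at at 8 h), -0.0215 and 0.22 (Avp at 8 h), -0.22 and 0.27 (Avp at 7 d), -0.0257 and 0.0906 (Avpr1a 1418604_at at 8 h), -0.17 and 0.0286 (Avpr1a 1418603_at at 0 h) and -0.0024 and 0.21 (Avpr1a 1418603_at at 7 d). Without the 2 farthest mice the 6 correlations between genes kept their side of 0.05, the threshold used for them, and that of Avp with Avpr1a had an adjusted p of 0.0144, against 0.00306 with all mice. The exact test alone cannot reach the threshold over all probesets, since its smallest p is 0.00216 with 6 mice against 6 and 0.00476 with 4 against 6. No paired analysis was possible because the replicate numbers name single mice and no number is shared between groups.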
